A study of Homo sapiens with 8 samples.

Results

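Genes of the methyl-CpG binding protein families were followed at the RNA level in 8 stable lines of HEK293T, a human embryonic kidney cell line. They were measured through 12 array probes for 8 of 9 listed genes. The genes were MBD1, MBD2, MBD3, MBD4, MBD5, MBD6, ZBTB33, ZBTB4 and ZBTB38, and their probes were found among the 34127 non-control probes by matching the RefSeq transcript named for each probe to the gene symbols. No probe was matched to MBD3 through the gene table used, so its RNA was not analyzed here and only its promoter window is counted below. For 7 of the genes, 11 probes passed the filter on dim signals and were tested together with all 22530 probes that passed it.

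Each line carried 1 plasmid of the pcDNA6/myc-His backbone, and every plasmid was represented by 2 clones, each grown from a single colony under blasticidin. The plasmids were the empty vector (clones #1 and #2), TET1-CDwt, which encodes the wild-type catalytic domain of the 5-methylcytosine oxidase TET1 (#2 and #5), MBD-TET1-CDwt, in which a methyl-CpG-binding domain taken from MBD2 is fused to that catalytic domain (#3 and #10), and MBD-TET1-CDmut, the same fusion with an inactive catalytic domain (#9 and #10). The backbone, the selection and the HEK293T background were therefore shared by all 4 groups. The 2 clones of a plasmid were isolated separately from one parental line, so the p-values measure the spread between clones. Slide 1 held the clones without an MBD, and slide 2 those of the fusions. The active and inactive fusions, and likewise TET1-CDwt and empty vector, could thus be compared within a slide. In any comparison of a fusion with empty vector, plasmid and slide cannot be told apart.

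Methyl-CpG binding proteins connect DNA methylation to chromatin. One family shares the MBD fold: MBD1 and MBD2 bind methylated CpG and recruit repressors, MBD2 and MBD3 are alternative subunits of the NuRD deacetylase and remodeling complex, MBD4 is a DNA glycosylase that removes thymine from mismatches at CpG, and MBD5 and MBD6 have an MBD but bind the Polycomb repressive deubiquitinase and not methylated DNA. A second family, ZBTB33 (Kaiso), ZBTB4 and ZBTB38, has a BTB domain, reads methylated CpG with zinc fingers and recruits corepressors. The word reader is used for all listed genes as a short name, also for MBD5 and MBD6. The fusions placed an additional copy of the MBD2 domain, coupled to TET1 activity, in cells that already contain these endogenous readers. The comparisons address whether the RNA of the endogenous readers differed when an active, untargeted, or inactive MBD-linked TET1 domain was expressed.

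The promoters of the readers differ in CpG content, and 4 of them are shown because they belong to the MBD2 gene, the source of the transferred domain, and to MBD5 and ZBTB38, for which both MBD-TET1-CDwt arrays read highest. Each sequence is the 250 bases before an annotated start in RefSeq (GRCh38.p14), written 5′ to 3′ on the strand of the gene, with every CG in capitals. The MBD2 promoter lies at chr18:54224670-54224919 on the minus strand, the MBD5 promoter (start 1 of 2) at chr2:148020761-148021010 on the plus strand, and those of ZBTB38 (starts 1 and 9 of 10) at chr3:141323936-141324185 and chr3:141402099-141402348 on the plus strand.
MBD2: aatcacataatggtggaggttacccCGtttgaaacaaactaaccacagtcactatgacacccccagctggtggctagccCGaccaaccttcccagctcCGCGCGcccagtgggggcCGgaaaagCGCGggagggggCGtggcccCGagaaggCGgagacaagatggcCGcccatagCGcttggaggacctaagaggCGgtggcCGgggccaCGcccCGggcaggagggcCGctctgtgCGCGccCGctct
MBD5 start 1: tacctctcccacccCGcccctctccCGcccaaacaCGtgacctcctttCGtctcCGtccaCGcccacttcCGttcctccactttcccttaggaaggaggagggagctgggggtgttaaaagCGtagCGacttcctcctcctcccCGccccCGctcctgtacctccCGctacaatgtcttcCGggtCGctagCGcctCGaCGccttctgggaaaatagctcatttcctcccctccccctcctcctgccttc
ZBTB38 start 1: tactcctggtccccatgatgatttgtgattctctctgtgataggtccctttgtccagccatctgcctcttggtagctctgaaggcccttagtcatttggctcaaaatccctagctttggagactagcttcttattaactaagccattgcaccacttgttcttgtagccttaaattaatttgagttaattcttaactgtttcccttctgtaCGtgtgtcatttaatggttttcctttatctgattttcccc
ZBTB38 start 9: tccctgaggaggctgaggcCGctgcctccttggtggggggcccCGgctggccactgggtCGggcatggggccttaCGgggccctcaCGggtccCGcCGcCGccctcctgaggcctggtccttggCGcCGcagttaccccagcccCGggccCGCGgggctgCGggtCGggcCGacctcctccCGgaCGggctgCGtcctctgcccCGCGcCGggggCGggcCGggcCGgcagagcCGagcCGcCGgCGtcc

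The MBD2 window held 21 CpG and the MBD5 window 17. Over the 9 windows of the 8 genes other than ZBTB38 the count ranged from 14 to 32 with a median of 24, against a median of 11 over the 35116 promoter windows of the same length in the table. The 10 starts of ZBTB38 ranged from 0 to 29 CpG with a median of 3, so that its start 1, with a single CpG, and its start 9, with 29, stand near the ends of that range. The sequence TCCTGCNA, a motif known to be bound by Kaiso in unmethylated DNA, was searched on both strands and was found in 1 of the 19 windows of the readers, at start 5 of ZBTB38, and in 3.74% of all windows. CGCG, which holds the pair of adjacent CpG that Kaiso can bind when methylated, was found in 8 of the 19 windows and in 46.4% of all. The 8 were 7 of the 9 windows of the genes other than ZBTB38 and 1 of the 10 starts of ZBTB38. These matches describe letters in the windows only. Methylation was not measured in the files analyzed here, and which start is used in HEK293T was not tested.

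All values are log2 intensities of the deposited processed signal from which each array's 75th percentile over non-control probes was subtracted. This percentile lay between an intensity of 328 and 527. A value of 0 is therefore the intensity of that percentile. A probe's own values can be compared between arrays, whereas levels of different probes cannot. Of the non-control probes, 63.2% to 68.2% were well above background on an array, the lowest such signal lay between -6.01 and -5.51, and no spot was saturated. The 6 genes chosen as known in HEK293 cells, among them VIM, KRT18 and PAX2, were well above background on all 8 arrays. Of 5 genes of other cell types, ALB, PECAM1 and COL1A2 were well above background on none, and UMOD and PTPRC on all 8, with values from -3.41 to -2.71 and from -5.48 to -3.91. ALB, PECAM1 and COL1A2 stand for 1 cell type each (hepatocytes, endothelium and fibroblasts). The part of UMOD and PTPRC in any result was not tested. In these bulk samples, fewer cells expressing a gene and less RNA per cell cannot be told apart.

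None of the 7 readers tested differed between plasmids after adjustment over all probes. In limma fits with 4 group means, 0 of 7 genes and 0 of 11 probes had an adjusted p under 0.05 in any of 6 comparisons, and 1 gene, MBD5, had an unadjusted p under 0.05, in the comparison of the fusions and in the interaction. Over all 22530 probes the adjusted threshold was passed by 0% for TET1-CDwt against empty vector, 0.115% for MBD-TET1-CDwt against empty vector, 0% for MBD-TET1-CDmut against empty vector and 0.102% for MBD-TET1-CDwt against MBD-TET1-CDmut. The other comparisons were the difference between active and inactive plasmids averaged over the slides, with 0.0311% of all probes called, and the interaction, which asks whether the effect of catalytic activity differs with and without the MBD, with 0.0444%. The unadjusted threshold was passed by 2.5%, 6.6%, 2.68%, 6.84%, 5.44% and 3.73% of all probes in the same order. Few probes of any kind were called with 2 clones a group, so the count of 0 among the readers lies at the background.

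**Figure D1:**
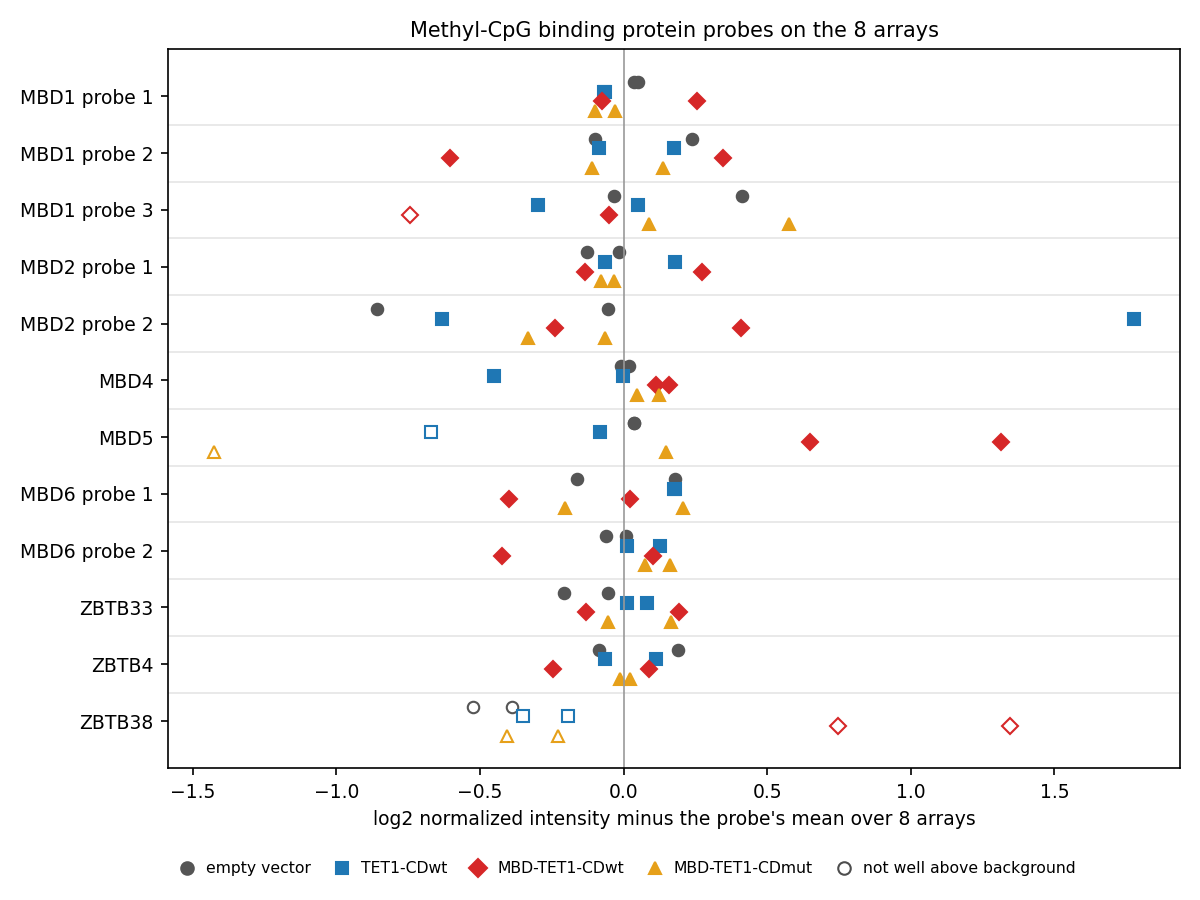
Log2 normalized intensity of each of the 12 probes on each of the 8 arrays, as the difference from that probe's mean over the arrays (x axis), with probes in rows, plasmids by symbol and color, and open symbols where the probe was not well above background. The probes of MBD1 (probe 1), MBD2 (probe 1), MBD4, MBD6, ZBTB33 and ZBTB4 each span less than 0.61 on this axis, and both MBD-TET1-CDwt arrays lie to the right of the other 6 for MBD5 and ZBTB38.

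MBD2, the NuRD-linked reader whose domain was used in the fusions, was measured by a probe for NM_003927 that was well above background on all 8 arrays. Its value was 1.36 and 1.25 in the empty vector clones, 1.56 and 1.32 with TET1-CDwt, 1.65 and 1.25 with MBD-TET1-CDwt, and 1.35 and 1.30 with MBD-TET1-CDmut. The MBD-TET1-CDwt clones were the highest and the lowest of the 8, so the spread within that pair covered every other array. Against empty vector the active fusion differed by 0.14 ± 0.20 (SE, n = 2 clones a group) and the inactive one by 0.02 ± 0.20. The 95% interval of the first ran from -0.34 to 0.62, or 0.790- to 1.54-fold, and that of the second from -0.47 to 0.50. Whether the probe lies within the transferred part of the gene is not given in the sources used here.

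A second MBD2 probe, for NM_015832, was dim but well above background on all 8 arrays. It read -5.21 and -4.41 with empty vector, -4.98 and -2.57 with TET1-CDwt, -3.94 and -4.59 with MBD-TET1-CDwt, and -4.42 and -4.68 with MBD-TET1-CDmut. The array of TET1-CDwt #5 stood above the other 7, while its sister clone lay among the lowest. The difference of TET1-CDwt from empty vector was 1.03 ± 0.72 (adjusted p = 1.00), and without TET1-CDwt #5 it was -0.18. The first probe of MBD2 gave 0.13 ± 0.20 for the same comparison, so the larger value rests on 1 clone and on 1 of the probes.

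MBD1, which recruits histone methylation enzymes to methylated DNA, was represented by a probe for NM_015846. It read 0.73 and 0.71 with empty vector, 0.61 and 0.61 with TET1-CDwt, 0.93 and 0.60 with MBD-TET1-CDwt, and 0.65 and 0.58 with MBD-TET1-CDmut. TET1-CDwt and MBD-TET1-CDmut differed from empty vector by -0.11 ± 0.18 in either case (adjusted p = 1.00). The MBD-TET1-CDwt clones held the highest value and the second lowest, with a difference from MBD-TET1-CDmut of 0.16 ± 0.18 (adjusted p = 0.900).

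The other MBD1 probes, both for NM_015845, did not follow the first. The second probe ranged from -1.58 on MBD-TET1-CDwt #10 to -0.64 on MBD-TET1-CDwt #3, and its difference between the active and the inactive fusion was -0.14 ± 0.33. The third, dim probe ranged from -6.00 on MBD-TET1-CDwt #10, where it was not well above background, to -4.68 on MBD-TET1-CDmut #9. Its difference between the active and the inactive fusion was -0.73 ± 0.31 (adjusted p = 0.739). The 3 MBD1 probes therefore did not share a sign for the same comparison, and none was called. In all 3, MBD-TET1-CDwt #3 read higher than MBD-TET1-CDwt #10.

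MBD4, the glycosylase, acts in the repair of deaminated 5-methylcytosine, next to the pathway through which TET products are removed. Its probe (NM_003925) read 0.52 and 0.49 with empty vector, 0.50 and 0.05 with TET1-CDwt, 0.66 and 0.61 with MBD-TET1-CDwt, and 0.55 and 0.62 with MBD-TET1-CDmut. On 7 arrays the value lay between 0.49 and 0.66, and TET1-CDwt #5 lay 1.36-fold below its sister clone. Against empty vector the active fusion differed by 0.13 ± 0.20 and the inactive one by 0.08 ± 0.20 (adjusted p = 0.940 and 1.00). The difference between the fusions was 0.05 ± 0.20, with a 95% interval from -0.42 to 0.52.

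MBD6, which works with the Polycomb deubiquitinase, had a probe for NM_052897 that read 1.14 and 1.48 with empty vector, 1.48 and 1.48 with TET1-CDwt, 0.91 and 1.33 with MBD-TET1-CDwt, and 1.10 and 1.51 with MBD-TET1-CDmut. MBD-TET1-CDwt #3 was the lowest array, and the groups overlapped. The difference was 0.17 ± 0.24 for TET1-CDwt against empty vector and -0.19 ± 0.24 for MBD-TET1-CDwt against MBD-TET1-CDmut. A second probe for the same transcript ranged from -3.18 to -2.59, was again lowest on MBD-TET1-CDwt #3, and gave 0.09 ± 0.21 and -0.28 ± 0.21. The 2 probes thus agreed in sign in both within-slide comparisons, with no call in either.

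ZBTB33 (Kaiso, NM_006777), which binds methylated CpG pairs and recruits the NCoR corepressor, read 0.70 and 0.54 with empty vector, 0.84 and 0.76 with TET1-CDwt, 0.95 and 0.62 with MBD-TET1-CDwt, and 0.70 and 0.92 with MBD-TET1-CDmut. TET1-CDwt and MBD-TET1-CDmut differed from empty vector by 0.18 ± 0.19 and 0.19 ± 0.19 (adjusted p = 1.00 for each). The fusions overlapped each other, with a difference of -0.03 ± 0.19 and a 95% interval from -0.48 to 0.43. ZBTB4 (NM_020899), a related zinc finger reader, was measured by 10 spots on each array, whose SD on the log2 scale was 0.04 to 0.08. It read -0.54 and -0.26 with empty vector, -0.34 and -0.52 with TET1-CDwt, -0.70 and -0.36 with MBD-TET1-CDwt, and -0.43 and -0.46 with MBD-TET1-CDmut. All groups overlapped for ZBTB4, with differences of -0.03 ± 0.20 within slide 1 and -0.08 ± 0.20 within slide 2. Between the clones of a pair, the difference was largest for MBD-TET1-CDwt, 0.33 in size.

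For these 6 genes, whose representing probes were well above background on all 8 arrays, the 36 differences in the 6 comparisons ranged from -0.36 to 0.28, and none had an unadjusted limma p under 0.05. In the 4 pairwise comparisons the 95% intervals of these representing probes reached -0.76 and 0.74 at most. Falls beyond 0.589-fold and rises beyond 1.67-fold thus lay outside every one of them. Those of the interaction were wider and reached -1.16 (MBD6) and 0.95 (MBD4). Some other probes of these genes had wider intervals. The second MBD2 probe reached 2.75 for TET1-CDwt against empty vector, and the third MBD1 probe -1.48 for MBD-TET1-CDwt against MBD-TET1-CDmut. The median difference over the 7 readers was -0.03, 0.13, -0.01 and 0.05 in the 4 pairwise comparisons in the order above, and over all probes tested it was -0.03, -0.02, -0.02 and 0.01.

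The within-group SD of the 6 genes lay between 0.12 and 0.24, beside a median of 0.25 over all probes tested. By group, the median SD of the 6 genes was 0.09 in both the empty vector and the TET1-CDwt pair, 0.24 in the MBD-TET1-CDwt pair and 0.05 in the MBD-TET1-CDmut pair (n = 2 clones each). Over all probes it was 0.16, 0.18, 0.26 and 0.12 in that order. By these medians the MBD-TET1-CDwt clones were the most different pair. That was not so for each gene, since MBD4 differed most in the TET1-CDwt pair (0.45) and by 0.04 in the MBD-TET1-CDwt pair, and MBD5 in the MBD-TET1-CDmut pair. Between the MBD-TET1-CDwt clones, #3 read higher than #10 by 0.33 for MBD1, 0.41 for MBD2 and 0.32 for ZBTB33, whereas the value of #3 minus #10 was -0.42 for MBD6 and -0.33 for ZBTB4.

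MBD5, whose product has an MBD and joins the Polycomb deubiquitinase, was the reader with the highest F statistic between the 4 groups, 3.89 (adjusted p = 1.00). Its probe (NM_018328) was dim. It read -4.98 and -4.98 with empty vector, -5.10 and -5.69 with TET1-CDwt, -3.70 and -4.37 with MBD-TET1-CDwt, and -6.44 and -4.87 with MBD-TET1-CDmut, and it was not well above background on TET1-CDwt #5 and MBD-TET1-CDmut #9. Both MBD-TET1-CDwt clones lay above the other 6 arrays. An arrangement with both MBD-TET1-CDwt arrays on top was seen in 4.95% of all probes tested.

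The MBD5 difference was 1.62 ± 0.51 for MBD-TET1-CDwt against MBD-TET1-CDmut (adjusted p = 0.643) and 0.95 ± 0.51 against empty vector (adjusted p = 0.826). The first value rests in part on MBD-TET1-CDmut #9, which was not well above background, so that 1 of the 2 MBD-TET1-CDmut clones measured the gene. Without that clone the difference was 0.84, without MBD-TET1-CDmut #10 it was 2.41, and with normexp background correction it was 0.28. The unadjusted p was no longer under 0.05 without MBD-TET1-CDmut #9, without MBD-TET1-CDwt #3, with normexp and with array weights. TET1-CDwt against empty vector gave -0.41 ± 0.51, and the interaction, the difference between the effects of catalytic activity with and without the MBD, was 2.03 ± 0.72 (adjusted p = 1.00). MBD5 thus read highest in the clones with the active fusion on these 8 arrays, and the difference did not pass the adjustment over 22530 probes.

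ZBTB38, a zinc finger reader related to ZBTB4, had 1 probe (NM_001080412), which was well above background on none of the 8 arrays, so that no fold is given. It read -7.33 and -7.20 with empty vector, -7.00 and -7.16 with TET1-CDwt, -6.07 and -5.47 with MBD-TET1-CDwt, and -7.22 and -7.04 with MBD-TET1-CDmut. Both MBD-TET1-CDwt arrays again lay above the other 6, which span -7.33 to -7.00. The same arrangement was found in 9.09% of the 9137 probes that were well above background on no array. The size of the shift was larger than is typical of these dim probes. The MBD-TET1-CDwt mean lay 1.39 above that of the other 6 arrays, beside a median of 0.26 over the dim probes. Within slide 2, the active fusion lay 1.36 above the inactive one, beside a median of 0.03. Whether these signals measure ZBTB38 RNA was not tested. MBD-TET1-CDwt #3 lay below the lowest signal well above background of its array, -5.56, and #10 lay just above that of its own array, -5.51, without being marked as well above background.

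**Figure D2:**
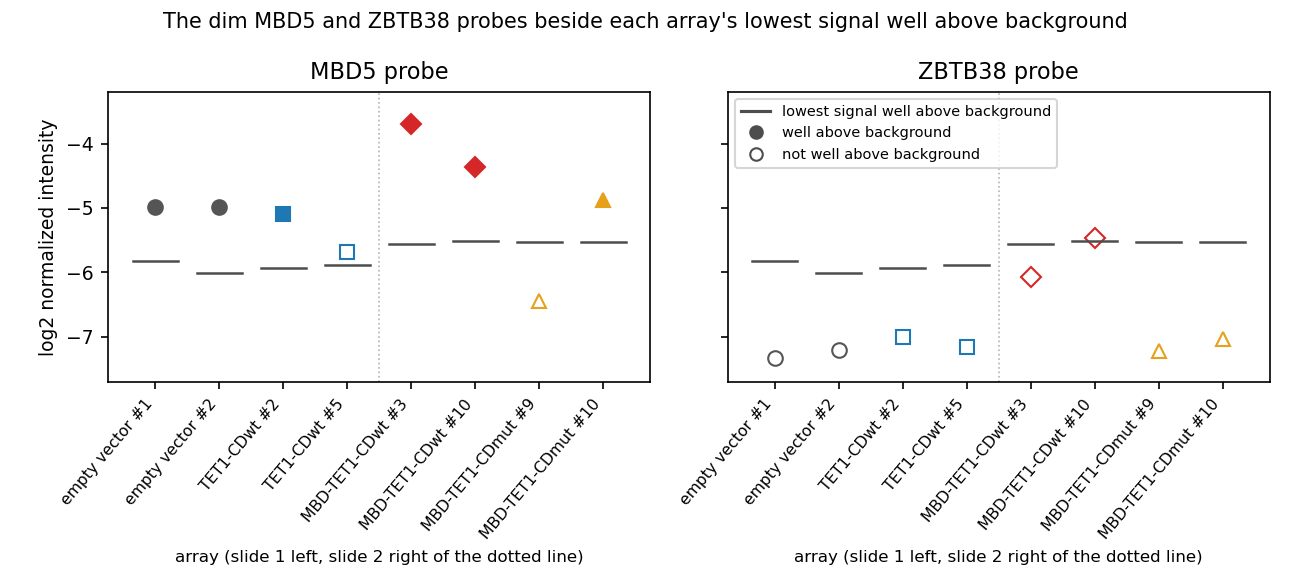
Log2 normalized intensity (y axis) of the MBD5 probe (left) and the ZBTB38 probe (right) on the 8 arrays (x axis), with open symbols where the probe was not well above background and a bar at the lowest signal well above background on each array. Both MBD-TET1-CDwt arrays are the highest in each panel, and every ZBTB38 symbol is open.

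The named genes whose probes followed the MBD5 probe most closely over the 8 arrays were H3-3A (Pearson r = 0.965), H3C1 (r = 0.960) and TBC1D4 (r = 0.954). The first and second encode histone H3 proteins, and TBC1D4 a Rab GTPase-activating protein. The 8 points share 2 slides and the same 8 RNA samples. These genes were picked as the highest among all named probes tested, so the values are a description only. H3-3A read 7.65 and 7.54 in the MBD-TET1-CDwt clones and 7.12 to 7.36 in the other 6, and it was lowest, like MBD5, on MBD-TET1-CDmut #9. H3C1 read 4.64 and 4.52 against 4.05 to 4.43, and TBC1D4 0.73 and 0.60 against 0.06 to 0.56. The same pair of arrays was highest and the same array lowest for all 3 genes.

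Proteins with which the readers act, and other proteins related to the readers, were taken from 5 lists with 40 genes in all. Of these, 38 genes with 63 probes were tested. None was called by limma in any of the 6 comparisons. At an unadjusted p under 0.05 there were 0, 2, 1 and 4 of 63 probes in the 4 pairwise comparisons, 5 for the active against inactive average, and 0 for the interaction, beside the shares of all probes given above. The 12 NuRD genes, the complex of MBD2 and MBD3, had a median difference of -0.03 for TET1-CDwt against empty vector and 0.13 for MBD-TET1-CDwt against MBD-TET1-CDmut over 17 probes, with 0.01 for all probes in the latter. The 5 genes listed as partners of MBD1 and heterochromatin factors gave -0.09 and -0.03 over 10 probes. The 8 genes of the Polycomb deubiquitinase, with which MBD5 and MBD6 work, gave -0.01 and -0.01 over 12 probes. The 8 corepressors of the zinc finger readers gave -0.01 and 0.05 over 16 probes. In a list of 7 other genes, the 5 tested encode proteins with an MBD-like or SRA domain and gave -0.00257 and -0.19 over 8 probes. The remaining genes of that list, MBD3L1 and MBD3L2, were well above background on no array.

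Within the lists, the genes with the lowest p for the active fusion, against the inactive one or against empty vector, were the following. HDAC2, a NuRD deacetylase, read -3.81 and -4.33 with MBD-TET1-CDwt at 1 of its 2 probes, against -5.78 and -4.97 with empty vector (difference 1.31 ± 0.52, adjusted p = 0.755). TET1-CDwt #5 was higher than both at this dim probe, with -3.67, and the probe was well above background on 6 of the 8 arrays. The other HDAC2 probe gave 0.13 ± 0.22 for the same comparison. ATF7IP, the cofactor through which MBD1 engages the methyltransferase SETDB1, read -1.98 and -2.01 with MBD-TET1-CDwt and -1.50 and -1.43 with MBD-TET1-CDmut (difference -0.53 ± 0.17, adjusted p = 0.639). Its other probe gave -0.27 ± 0.25. CTBP2, a corepressor, read 0.69 and 0.72 with MBD-TET1-CDwt and lay between 0.93 and 1.56 on the other 6 arrays. It differed by -0.65 ± 0.20 from MBD-TET1-CDmut (adjusted p = 0.643) and by -0.57 ± 0.20 from empty vector (adjusted p = 0.713). The other CTBP2 probe gave -0.46 ± 0.19 and -0.22 ± 0.19 in these comparisons. UHRF2, which binds modified CpG through an SRA domain, gave -0.53 ± 0.22 against MBD-TET1-CDmut (adjusted p = 0.725) and -0.26 ± 0.22 against empty vector. Its other probe gave -0.25 ± 0.21 against MBD-TET1-CDmut. The first difference given for each of HDAC2, ATF7IP, CTBP2 and UHRF2 had an unadjusted limma p under 0.05. SETDB1 (-0.42 ± 0.18), FOXK2 (-0.32 ± 0.18) and UHRF1 (0.33 ± 0.20) against empty vector, and FOXK2 at another probe against MBD-TET1-CDmut (-0.37 ± 0.23), did not.

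TET1, the gene of the transfected catalytic domain, had 2 probes (NM_030625), both well above background on all 8 arrays. One read between 2.61 and 2.94, with differences from -0.06 to 0.06 in the 4 pairwise comparisons. The other read -1.28 and -1.20 with empty vector, -1.03 and -1.31 with TET1-CDwt, -1.55 and -1.44 with MBD-TET1-CDwt, and -0.70 and -0.91 with MBD-TET1-CDmut. It was lower in the active than in the inactive fusion by a difference of -0.69 ± 0.19 (adjusted p = 0.554). Whether either probe lies in the transfected part is not given in the sources used here, so these values do not check the labels of the clones.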

How the data were processed

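Cy3-labeled cRNA of 8 HEK293T lines was hybridized to 8 one-color Agilent arrays. The authors deposited the gProcessedSignal of Feature Extraction, an intensity after background subtraction that is not scaled between arrays. The file headers give Feature Extraction version 10.7.3.1 and the submitters' processing notes 9.5.1. The array design was annotated on an older build, and no probe coordinates are reported. The value table of the series matched the scanner files on all 44495 rows.

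Controls and outlier-flagged spots (between 213 and 269 of the latter on an array) were dropped. The log2 signals of the spots of one probe were averaged, and the array's 75th percentile over these probe values was then subtracted. A probe counted as above background if over 50% of its spots carried that flag. Probes were named through RefSeq transcripts in a gene table (GRCh38.p14, used for names and promoter windows), which gave a symbol to 25422 of 34127 probes, or 74.5%. A gene was represented by its probe with the highest mean signal. limma (version 3.58.1, R 4.3.3) was fitted to 4 group means with 4 residual degrees of freedom and Benjamini-Hochberg adjustment over 22530 probes, each measured on every array and above background in both clones of 1 or more groups. The fit was tested on simulated data with known rises in MBD-TET1-CDwt against empty vector. At log2 rises of 1, 1.58, 2.32 and 3 it called 13, 25, 38 and 44 of 50 changed probes in that order, with 4 false calls. Many changes of the smaller sizes would thus not be called. Tables and plots used Python 3.11.15, numpy 2.4.6, pandas 2.3.3 and matplotlib 3.10.9. The methods of the study refer to earlier work for the array analysis and give a fold threshold. Its text speaks of normalized intensity values without naming the procedure, and names no test.

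The genes and partner lists were chosen with earlier results of these data known. Named are all listed readers, TET1, the 3 genes most correlated with the reader of highest F, and, from each list, any gene called or otherwise that of lowest p for the active fusion against the inactive one and against empty vector. One marker gene is not reported here. Precision is limited by 2 arrays a group. The slides, each scanned as 1 set, could not be fitted beside the groups. The alternatives were another background correction, other scalings, filters and limma settings, any probe of a gene, and leaving out each clone.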

Additional observations from a re-analysis of the deposited data

Results flagged for a closer look

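The MBD5 probe is listed because the effects of catalytic activity pointed in opposite ways with and without the MBD. The TET1-CDwt clones read -5.10 and -5.69 and the empty vector clones -4.98 each. The MBD-TET1-CDwt clones read -3.70 and -4.37 and the MBD-TET1-CDmut clones -6.44 and -4.87. The limma interaction, which compares the differences with and without the MBD, gave 2.03 ± 0.72 on the log2 scale (unadjusted p = 0.0260, adjusted p = 1.00). Of all probes tested, 3.73% passed the unadjusted threshold. The probe was not well above background on TET1-CDwt #5 and MBD-TET1-CDmut #9, and the part of these dim signals in the value was not tested. The interaction was 1.25 without MBD-TET1-CDmut #9, 2.82 without MBD-TET1-CDmut #10 and 0.57 with normexp background correction, with the same sign under every alternative run. Its unadjusted p was over 0.05 with array weights and without either empty vector clone, TET1-CDwt #5 or MBD-TET1-CDwt #3.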

How the results depend on the processing

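The count of readers called stayed at 0 in all 6 comparisons under every alternative run. Of 1088 alternative values of the 66 probe differences, 1030 moved by less than the spread between clones, 58 by more, 71 changed sign, and 0 passed the adjusted threshold. For the representing probes of the 6 genes measured on all 8 arrays the values ranged from -0.57 to 0.51. The second MBD2 probe, also well above background on all 8 arrays, ranged from -0.18 to 2.23 for TET1-CDwt against empty vector. The MBD5 difference between MBD-TET1-CDwt and MBD-TET1-CDmut ranged from 0.28 to 2.41 (adjusted p from 0.207 to 0.999). Its lowest value came with normexp on the median spot signal, which adds an offset of 50 to every spot and so compresses dim probes. This form was chosen after the data were seen, because the files hold no mean spot signal and because local backgrounds with an outlier flag had to be set to the array's median. MBD5 and the third MBD1 probe were not tested when all 8 arrays had to be well above background. Without the filter on dim probes ZBTB38 entered the fit, with adjusted p = 0.298 for MBD-TET1-CDwt against empty vector and 0.331 against MBD-TET1-CDmut. The counts over all probes varied more: 26 for MBD-TET1-CDwt against empty vector (0 to 97 under the alternatives), 23 against MBD-TET1-CDmut (0 to 143), 7 for the active against inactive average (0 to 38), 10 for the interaction (0 to 35), and 0 for TET1-CDwt (0 to 2) and MBD-TET1-CDmut (0 to 1) against empty vector. For the first 4 of these comparisons the highest counts came without an MBD-TET1-CDwt clone, where the lone clone is assumed to vary like the other groups, and the cause was not tested. No paired analysis was possible because the clones were picked as separate colonies and nothing pairs them between plasmids.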
